A study of Mus musculus with 8 samples.

Results

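Microglia, the resident macrophages of the brain, were isolated from brains of 6-month-old mice of the C57BL/6 strain and profiled by RNA-seq. The 4 groups were wild-type mice without AD (WT), mice with a conditional knockout of Calhm2 and without AD (Calhm2 cKO, here cKO), wild-type mice with AD (WT/AD) and knockout mice with AD (Calhm2 cKO/AD, here cKO/AD), where AD stands for Alzheimer's disease. Each group had 2 libraries. The quantity described here is the interaction of Calhm2 deletion and AD, which is the AD difference with Calhm2 deleted (cKO/AD minus cKO) minus the AD difference with Calhm2 intact (WT/AD minus WT), per gene and on the log2 scale. It is positive where AD raised a gene more, or lowered it less, in cKO than in WT mice. All 8 of the 8 libraries enter it, and 22089 of 55421 genes had enough counts to be tested. The labels name neither the mouse model of AD nor the Cre driver of the knockout, and 1 group is written differently in the series design text and in the sample labels, which were used here. No label states whether a group's 2 libraries stem from different mice, and p-values therefore reflect library-to-library spread, part of which may be technical. In such bulk libraries, fewer cells of a type and less RNA per cell cannot be told apart.

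Calhm2 encodes a membrane channel of the calcium homeostasis modulator family. In models of amyloid disease, microglia are known to leave a homeostatic state, marked by genes such as P2ry12 and Tmem119, and to take on a disease-associated (DAM) state, in which Apoe, Trem2, Cst7, Clec7a, Lpl and lysosomal protease genes are high. Trem2 is a lipid-sensing receptor that signals through the adaptor Tyrobp, and it is needed for the full DAM state in mice.

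Libraries held between 18218165 and 25774587 counts. The first cKO/AD library stood apart, with counts for 18693 genes, compared with 22088 in its partner and 24342 to 25988 in the other 6, and with 4.73% of counts from mitochondrially encoded genes against 1.37% to 2.36% in the other 7. The libraries of cKO/AD also differed most from each other (r = 0.843 across genes on log2 CPM, against 0.93 to 0.945 in the other groups). Homeostatic microglia markers were detected in every library, with a sum over 25 genes from 19989 to 50083 CPM (read counts scaled to the TMM-adjusted library size), and 0 of the 25 were filtered out for low counts. Calhm2 was at 10.3 and 12 CPM in WT, 16.4 and 13.7 in WT/AD, 4.76 and 4.70 in cKO and 2.50 and 1.56 in cKO/AD. Both knockout groups lay below both groups with Calhm2 intact, and the interaction of Calhm2 itself was -1.65 (SE 0.66, edgeR adjusted p = 0.196).

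The interaction was related to the GC content of transcripts, as described further on. The promoters of 4 genes that are used as examples in the text are shown first, from 250 bases before to 50 bases after the start, from RefSeq on GRCm38.p6. Promoters differ in sequence from transcripts, and whether promoter GC content or CpG number relates to the interaction was not tested. Hps6, Grin2c and Trem2 had negative interactions and Cybb a positive interaction. The capitals mark CpG, the letters CG read on the strand of the gene, which are the same letters on the other strand.
Hps6 promoter (chr19:46003228-46003527, plus strand): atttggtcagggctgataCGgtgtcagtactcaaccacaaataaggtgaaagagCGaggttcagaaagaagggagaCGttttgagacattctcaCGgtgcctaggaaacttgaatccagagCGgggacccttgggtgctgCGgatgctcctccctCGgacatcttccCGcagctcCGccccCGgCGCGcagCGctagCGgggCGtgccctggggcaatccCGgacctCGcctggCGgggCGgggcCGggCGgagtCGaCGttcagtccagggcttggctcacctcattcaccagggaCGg
Grin2c promoter (chr11:115267194-115267493, minus strand): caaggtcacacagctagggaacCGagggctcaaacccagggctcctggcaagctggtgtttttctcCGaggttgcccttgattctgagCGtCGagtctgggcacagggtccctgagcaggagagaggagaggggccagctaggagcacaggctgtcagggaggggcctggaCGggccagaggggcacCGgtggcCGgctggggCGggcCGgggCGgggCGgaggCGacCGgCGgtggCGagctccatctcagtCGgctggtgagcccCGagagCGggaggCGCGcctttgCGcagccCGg
Trem2 promoter (chr17:48346151-48346450, plus strand): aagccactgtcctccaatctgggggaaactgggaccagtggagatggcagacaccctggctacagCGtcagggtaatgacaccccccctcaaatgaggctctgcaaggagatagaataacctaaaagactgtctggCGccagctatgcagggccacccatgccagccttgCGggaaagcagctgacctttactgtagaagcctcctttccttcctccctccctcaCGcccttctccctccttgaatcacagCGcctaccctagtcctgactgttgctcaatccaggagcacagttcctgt
Cybb promoter (chrX:9469275-9469574, minus strand): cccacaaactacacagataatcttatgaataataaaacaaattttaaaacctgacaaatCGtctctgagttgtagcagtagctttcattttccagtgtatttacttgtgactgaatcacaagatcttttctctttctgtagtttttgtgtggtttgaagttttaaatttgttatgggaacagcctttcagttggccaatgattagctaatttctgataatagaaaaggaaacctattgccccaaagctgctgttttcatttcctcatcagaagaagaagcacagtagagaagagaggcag
The Hps6 promoter had a GC content of 62.7% and 24 CpGs, and the Grin2c promoter 70.0% and 22. In the Trem2 promoter these were 56% and 5, and in the Cybb promoter 35.3% and 1. Over 27025 RefSeq promoters of the same length the median was 52.7% GC and 7 CpGs. At least 1 CpG was found in 94.2% of them, at least 5 in 61.7%, at least 22 in 23.3% and at least 24 in 20%. These counts describe the sequences and are not evidence of how the genes are controlled.

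Of the 22089 genes, 6 had an interaction past the threshold of an edgeR adjusted p of 0.05, or 0.0272%. The AD difference was higher in cKO for 2 of them, the predicted genes Gm10800 and Gm10801 (0.00905% of tested genes), and lower for 4, Slc25a22, Grin2c, Hps6 and the predicted gene Gm21887 (0.0181%). In every case the AD difference changed sign between the genotypes. The 4 genes of the second kind were higher in WT/AD than in WT and lower in cKO/AD than in cKO. Of the 6, only Gm10800 was still called by edgeR when any 1 of the WT or WT/AD libraries, or the second cKO library, was left out.

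Slc25a22, which encodes a mitochondrial glutamate carrier, was at 103 and 104 CPM in WT, 262 and 219 in WT/AD, 86.3 and 121 in cKO and 13.8 and 19.5 in cKO/AD. Both WT/AD libraries were above, and both cKO/AD libraries below, all 4 libraries without AD, and no AD group overlapped with another group. The AD difference was 1.22 in WT (SE 0.25, edgeR adjusted p = 0.262) and -2.63 in cKO (SE 0.27, edgeR adjusted p = 0.0236). The interaction was -3.85 (SE 0.36, edgeR adjusted p = 0.0331). Without AD the genotypes differed by 0.00. With the GC content of transcripts corrected in each library, the interaction was -2.65 (edgeR adjusted p = 0.0302).

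Grin2c, the gene of the GluN2C subunit of NMDA glutamate receptors, was at 30.8 and 38.7 CPM in WT, 102 and 78.2 in WT/AD, 35.5 and 58.0 in cKO and 5.73 and 5.17 in cKO/AD. The order of the groups was that of Slc25a22, with both cKO/AD libraries lowest and both WT/AD libraries highest. The interaction was -4.47 (SE 0.45, edgeR adjusted p = 0.0371), from an AD difference of 1.37 in WT and -3.10 in cKO. It was -2.49 with GC content corrected and no longer past the threshold (edgeR adjusted p = 0.0805).

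Hps6 encodes a subunit of the BLOC-2 complex, which acts in the making of lysosome-related organelles. It was at 13.4 and 19.1 CPM in WT, 21.5 and 18.3 in WT/AD, with 9.76 and 12 in cKO. In cKO/AD the first library had 0 counts and the second had 1, against 1005 counts in WT/AD and 471 in cKO over both libraries. Hps6 was thus close to undetected in cKO/AD alone, 798-fold lower than in WT/AD (exact 95% interval 143 to 31545, counting error only) and 439-fold lower than in cKO (78.4 to 17364). The fitted interaction of -8.78 (SE 0.89, edgeR adjusted p = 0.0371) depends on the prior count at such low values, and with GC content corrected it was -7.46 (edgeR adjusted p = 0.052). Both cKO/AD libraries had counts for fewer genes than any other library, as given above. How many tested genes were likewise close to undetected in cKO/AD alone was not counted. Calhm2 and Hps6 both lie on chromosome 19, as do Ifit1, Ifit2, Ifit3, Rela and Hells, which are described further on. These are only genes that the text describes, and the share of all tested genes that lie on chromosome 19 was not computed. Whether position bears on the values of these genes was not tested.

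Gm21887 was at 40.7 and 53.3 CPM in WT, 124 and 136 in WT/AD, 72.3 and 86.5 in cKO and 19.9 and 16.9 in cKO/AD. Its groups did not overlap, and the interaction was -3.58 (SE 0.33, edgeR adjusted p = 0.0331). With GC content corrected, the interaction was -0.65 (edgeR adjusted p = 0.585). Of the 6 genes, Gm21887 had the highest transcript GC content, 69.7%.

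Gm10800 was at 847 and 654 CPM in WT, 0.358 and 0.515 in WT/AD, 29.9 and 54.1 in cKO and 178 and 126 in cKO/AD. The gene was high in WT, nearly absent in WT/AD and intermediate in both knockout groups, and none of the 4 groups overlapped. The AD difference was -10.73 in WT (SE 0.50, edgeR adjusted p = 6.29e-04) and 1.85 in cKO (SE 0.33, edgeR adjusted p = 0.0556), which gave an interaction of 12.58 (SE 0.59, edgeR adjusted p = 6.44e-04). Gm10801 followed the same order, with 61.0 and 43.8 CPM in WT, 1.49 and 3.55 in cKO, and 5.96 and 6.87 in cKO/AD. In WT/AD it had 1 count, in the first library, against 2153 in WT, a ratio of 2652 (exact 95% interval 475 to 104789). The fitted interaction of Gm10801 was 12.34 (SE 1.03, edgeR adjusted p = 0.0262). Counts of predicted genes such as these 3 are uncertain where reads are shared between near-identical copies.

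**Figure D1:**
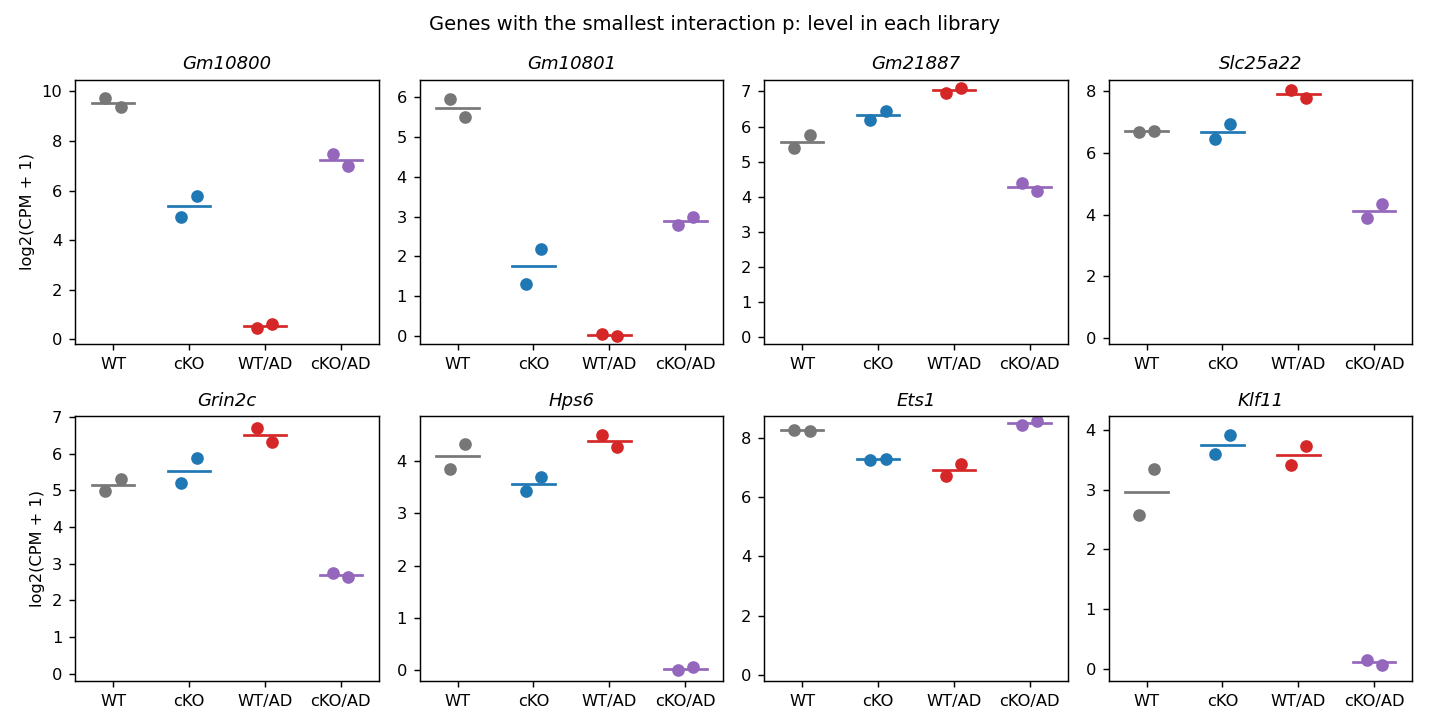
Level of 8 genes in each of the 8 libraries as log2(CPM + 1), by group; points are libraries and bars are means of 2 libraries. Gm10800, Gm10801 and Ets1 are lowest in WT/AD, and Gm21887, Slc25a22, Grin2c, Hps6 and Klf11 are lowest in cKO/AD.

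The next 10 genes by raw p shared an edgeR adjusted p of 0.05003, just outside the threshold. Only Ets1 and the predicted gene Gm21738 among the 10 had a positive interaction. Ets1, a transcription factor gene, was at 306 and 302 CPM in WT, 103 and 139 in WT/AD, 152 and 155 in cKO and 347 and 379.7 in cKO/AD. Its level was thus highest in WT and cKO/AD and lower where only the knockout or only AD was present, with no overlap between these pairs of groups. The interaction of Ets1 was 2.57 (SE 0.28), the AD difference being -1.33 in WT and 1.24 in cKO, and it was 2.32 with GC content corrected (edgeR adjusted p = 0.0339). For Gm21738 the WT libraries gave 1214 counts and the WT/AD libraries 3, a ratio of 498 (exact 95% interval 170.1 to 2420.3), with 267 in cKO/AD.

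The 8 others of these 10 had negative interactions. Klf11, a Kruppel-like transcription factor gene, was at 4.94 and 9.16 CPM in WT, 9.70 and 12.3 in WT/AD, with 11 and 14.1 in cKO. In cKO/AD it had 3 counts over both libraries against 555 in WT/AD, a ratio of 147 (exact 95% interval 50 to 714). Like Hps6, it was close to undetected in cKO/AD alone, the group whose libraries had counts for the fewest genes. Atp2b3, which encodes a plasma membrane calcium pump, was at 54.5 and 52.7 CPM in WT, 108 and 101 in WT/AD, 83.1 and 78.5 in cKO and 30.1 and 33.3 in cKO/AD, with 4 groups that did not overlap. The interaction of Atp2b3 was -2.31 (SE 0.27), from an AD difference of 0.96 in WT and -1.35 in cKO. Rnf112, Abhd16a (the gene of a phosphatidylserine lipase), Fndc10, Tmem145, Neurl1a (an E3 ubiquitin ligase gene) and 2310061I04Rik had interactions from -4.48 (Fndc10) to -2.31 (2310061I04Rik). In all of these, the AD difference was positive in WT and negative in cKO. With GC content corrected, the interaction of Neurl1a went from -2.31 to -0.20, that of Tmem145 from -2.83 to -1.19, that of Abhd16a from -2.50 to -1.19, that of Fndc10 from -4.48 to -2.43 and that of Rnf112 from -2.90 to -1.80. For Klf11 it went from -7.90 to -8.00.

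The small number of calls went with a wide spread. At an unadjusted p of 0.05, 4846 genes (21.9%) had an interaction by edgeR, 2130 positive (9.64%) and 2716 negative (12.3%), where 1104 are expected if no gene differs. At an edgeR adjusted p of 0.1, chosen after seeing the data, there were 1533 genes (6.94%), 640 positive (2.9%) and 893 negative (4.04%). DESeq2, which estimates the spread differently, called 2763 genes (12.5%) at an adjusted p of 0.05, 1226 positive (5.55%) and 1537 negative (6.96%). Of these, 1186 genes (5.37%) were also called by DESeq2 in the same direction after GC correction, 582 positive (2.63%) and 604 negative (2.73%). Without the first cKO/AD library, 1056 of them (4.78%) were still called both ways, 508 positive (2.3%) and 548 negative (2.48%). In that fit cKO/AD has 1 library, which is assumed to vary like the other groups, so the wide spread within cKO/AD no longer enters. The call that gave the 1186 genes, by DESeq2 in the same direction with and without GC correction, is named the GC-checked DESeq2 call in what follows. It was also chosen after seeing the data, and it does not require a call without the first cKO/AD library.

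Among the 2130 genes with a positive interaction at an unadjusted p of 0.05, 1979 (92.9%) were lower in WT/AD than in WT and higher in cKO/AD than in cKO. Among the 2716 with a negative interaction, 2400 (88.4%) had the opposite pattern, higher in WT/AD and lower in cKO/AD. A gene whose AD difference was only smaller in cKO was thus uncommon in this selection. Genes are selected here on the difference of the quantities compared, which favours opposite signs, so these shares are a description. Without that selection, the same patterns held for 56.6% of the 10123 tested genes with a positive interaction. They held for 57.8% of the 11966 with a negative interaction. Across all 22089 genes and without GC correction, the AD differences in cKO and in WT had a Pearson r of -0.07. This is a description over genes, which are not independent, and the comparisons share no library. The AD difference rose with GC content in WT and fell in cKO, as described further on. Its part in this r was not tested, and r was not computed with GC content corrected.

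**Figure D2:**
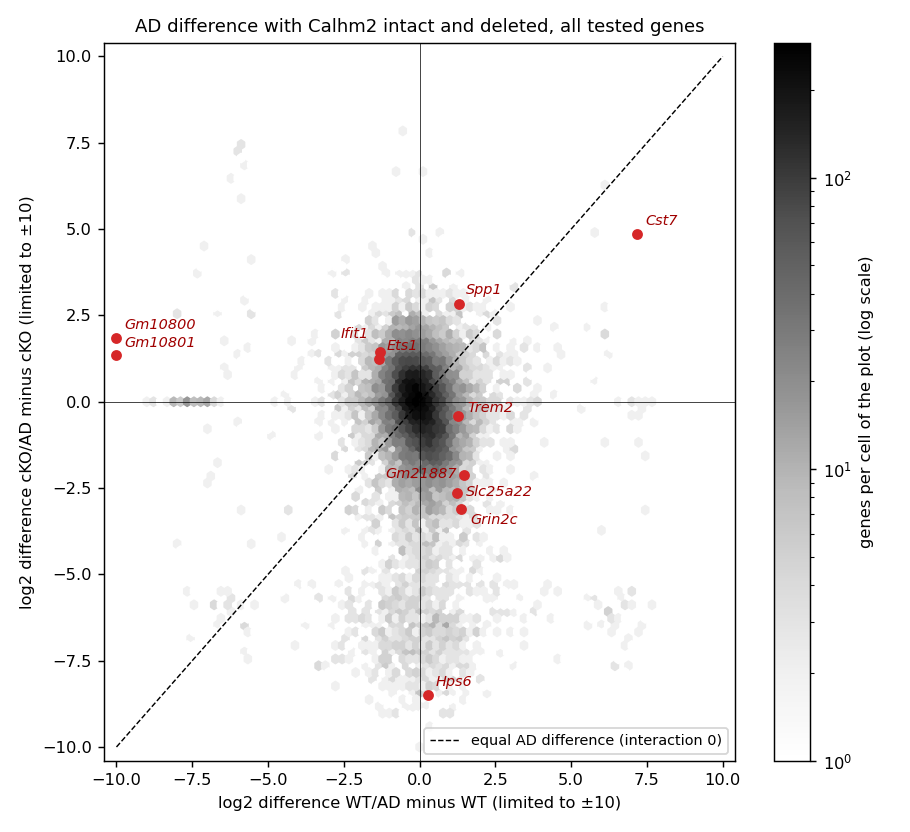
AD difference in log2 with Calhm2 intact (WT/AD minus WT, horizontal) and with Calhm2 deleted (cKO/AD minus cKO, vertical) for all 22089 tested genes, shaded by the number of genes, with values beyond 10 drawn at the edge. Cst7 lies below the dashed line of equal differences with both values positive, Spp1 above it, and Slc25a22, Grin2c and Gm21887 in the quadrant of a positive difference in WT and a negative difference in cKO.

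The DAM genes did not share a direction. None of the 30 passed the edgeR threshold for the interaction, nor did any tested member of the other 33 lists of genes examined, against 0.0272% of all tested genes. Of the 30 DAM genes, 13 had a positive and 17 a negative interaction, with a median of -0.26 against -0.16 over all tested genes (-0.17 against -0.11 with GC content corrected). With GC content corrected, 11 were positive and 19 negative. In all 16 choices of 1 library per group, 5 members kept a positive and 14 a negative sign, against 17.2% and 25.3% of all tested genes. The median AD difference of the list was 1.27 in WT and 1.00 in cKO. By the GC-checked DESeq2 call, 3 members had a negative interaction (Cst7, Trem2 and Ctsl) and 2 a positive interaction (Cybb and Spp1), where 2.73% and 2.63% of all tested genes were called.

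Trem2 was at 101 and 101 CPM in WT, 246 and 239 in WT/AD, 62.6 and 87.9 in cKO and 49.2 and 64.2 in cKO/AD. The level in WT/AD was above every other library, while cKO and cKO/AD overlapped. The AD difference was 1.26 in WT (2.40-fold) and -0.41 in cKO (0.754-fold), with an interaction of -1.67 (SE 0.32, edgeR adjusted p = 0.0589; DESeq2 adjusted p = 1.77e-04). After GC correction the interaction was -1.53 (edgeR adjusted p = 0.0857; DESeq2 adjusted p = 7.84e-05). Tyrobp, the adaptor of Trem2, was at 6.51 and 8.31 CPM in WT, 24.3 and 16.5 in WT/AD, 7.04 and 6.89 in cKO and 5.28 and 5.04 in cKO/AD. This order was that of Trem2, with an interaction of -1.89 (SE 0.59, edgeR adjusted p = 0.126; DESeq2 adjusted p = 0.028, and 0.334 with GC content corrected).

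Cst7, which encodes cystatin F, an inhibitor of lysosomal cysteine proteases, was at 3.61 and 3.68 CPM in WT, 550.4 and 514 in WT/AD, 11.1 and 5.27 in cKO and 278 and 202 in cKO/AD. It rose with AD in both genotypes, 146-fold in WT and 29.3-fold in cKO (edgeR adjusted p = 0.00203 and 0.0137). The interaction was -2.32 (SE 0.48, edgeR adjusted p = 0.0642; DESeq2 adjusted p = 5.25e-04), and -2.28 with GC content corrected. Ctsl, the gene of the lysosomal protease cathepsin L, was at 540.0 and 543 CPM in WT, 1107 and 1109 in WT/AD, 456 and 565 in cKO and 375 and 416 in cKO/AD. It was highest in WT/AD and lowest in cKO/AD, without overlap with the other groups, and its interaction was -1.40 (SE 0.26, edgeR adjusted p = 0.0573), or -1.88 with GC content corrected (DESeq2 adjusted p = 8.56e-09).

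Spp1, which encodes the secreted protein osteopontin, went the other way. It was at 101 and 96.1 CPM in WT, 218 and 262 in WT/AD, 52.3 and 58.6 in cKO and 414 and 375 in cKO/AD, and the 4 groups did not overlap. The level with AD was 2.44-fold that without in WT and 7.11-fold in cKO, with an interaction of 1.54 (SE 0.26, edgeR adjusted p = 0.0563), or 1.00 with GC content corrected (DESeq2 adjusted p = 7.38e-04). Cybb, the gene of a subunit of the phagocyte NADPH oxidase, is listed with the DAM genes but was lower with AD in WT. It was at 186 and 201 CPM in WT, 66.4 and 68.4 in WT/AD, 120.3 and 114 in cKO and 159.5 and 135 in cKO/AD. Its interaction was 1.85 (SE 0.25, edgeR adjusted p = 0.051), or 1.26 with GC content corrected.

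No other DAM gene had a GC-checked DESeq2 call. Clec7a, a pattern recognition receptor gene, was at 14.1 and 17.1 CPM in WT, 84.6 and 92.9 in WT/AD, 10.6 and 12.2 in cKO and 109 and 84.6 in cKO/AD, and its interaction was 0.58 (SE 0.33, edgeR adjusted p = 0.349). Lpl, the lipoprotein lipase gene, was at 15.6 and 14.4 CPM in WT, 74.0 and 66.8 in WT/AD, 17.5 and 15.9 in cKO and 96.2 and 103 in cKO/AD, with an interaction of 0.34 (SE 0.29, edgeR adjusted p = 0.545). Both genes were several fold above their level without AD whether or not Calhm2 was deleted, and the sign of both interactions turned with GC content corrected (-0.09 and -0.19). Apoe, which encodes a lipid carrier, had an interaction of -0.53 (SE 0.27, edgeR adjusted p = 0.293) that became 1.00 with GC content corrected (edgeR adjusted p = 0.166), a reversed value that DESeq2 called (1.03, adjusted p = 0.0293). Itgax, an integrin gene, had an interaction of -1.33 (SE 0.58, edgeR adjusted p = 0.229). A missed threshold does not show that these AD differences were alike.

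**Figure D3:**
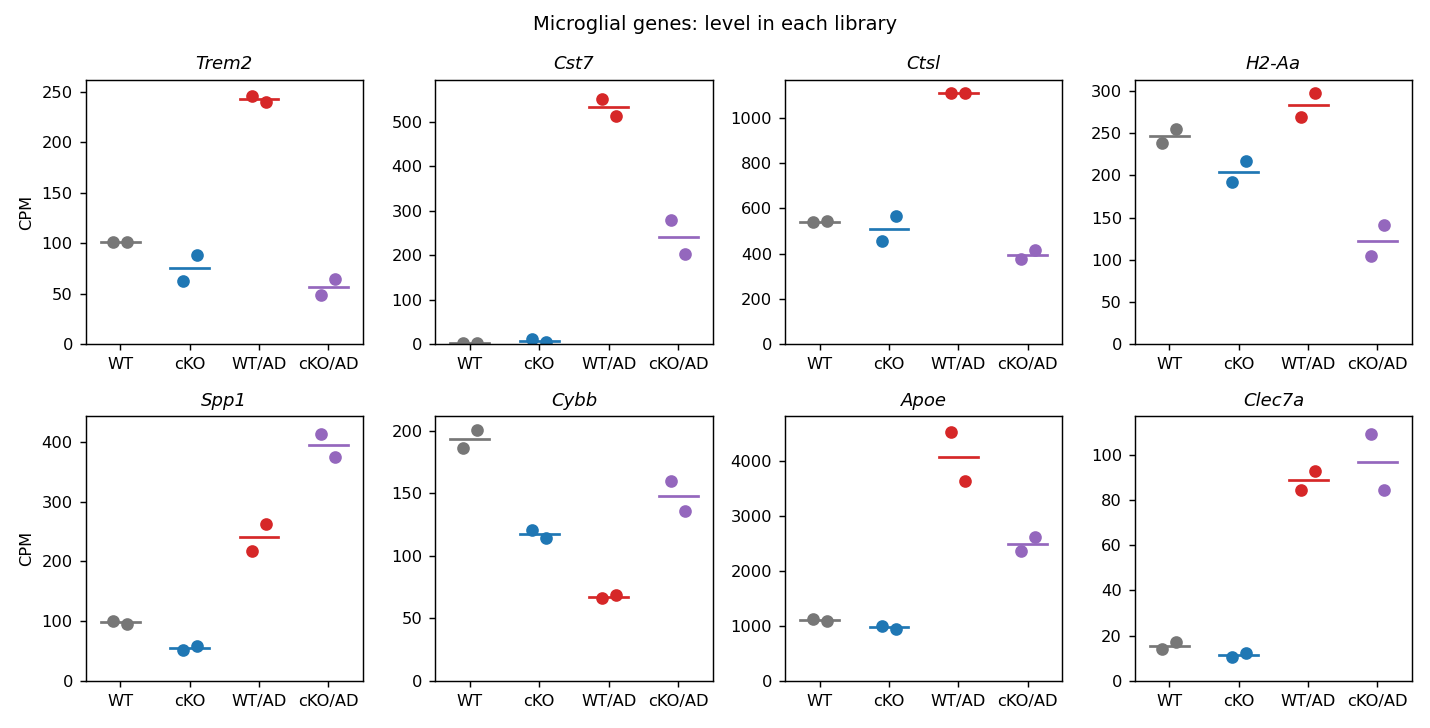
CPM of 8 microglial genes in each of the 8 libraries, by group, with axes from 0; points are libraries and bars are means of 2 libraries. Trem2, Ctsl and H2-Aa are lowest in cKO/AD and Cst7 is reduced there relative to WT/AD, while Spp1 is highest in cKO/AD and Clec7a overlaps between WT/AD and cKO/AD.

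Homeostatic microglia genes had 9 positive and 16 negative interactions, with a median of -0.43 that became 0.18 with GC content corrected, so the list had no direction that held. P2ry12, a purinergic receptor gene of resting microglia, was at 9165 and 8492 CPM in WT, 4478 and 6049 in WT/AD, 6229 and 5456 in cKO and 7233 and 7401 in cKO/AD (interaction 1.07, SE 0.30, edgeR adjusted p = 0.102). It was lower than in WT in all 3 other groups, and WT/AD overlapped with cKO. The interaction of Csf1r, the receptor for the survival factor CSF1, was -1.24 (SE 0.44, edgeR adjusted p = 0.16), that of Tmem119 -0.97 and that of the fractalkine receptor gene Cx3cr1 -0.63 (edgeR adjusted p = 0.364 and 0.664). With GC content corrected, the interaction of P2ry12 was 0.39 and that of Csf1r -0.59, Tmem119 turned to 0.36 and Cx3cr1 was at -0.60. Sparc, the gene of a secreted matrix protein, was the 1 member with a GC-checked DESeq2 call (interaction 1.02, SE 0.33), against 5.37% of all tested genes.

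The type I interferon list leaned to positive values. Of 27 genes, 18 had a positive and 9 a negative interaction, with a median of 0.56, or 0.91 with GC content corrected, and 12 positive and 2 negative members had 1 sign in all 16 choices of 1 library per group, against 17.2% and 25.3% of all tested genes (42.5% in either direction). By the GC-checked DESeq2 call 3 were positive (Ifit1, Ifit2 and Ifit3) and 1 negative (Ifnar2), where 2.63% and 2.73% of all tested genes were called. The 3 Ifit genes encode interferon-induced proteins that act against foreign RNA. Ifit1 was at 23.7 and 26.6 CPM in WT, 10.8 and 9.42 in WT/AD, 9.96 and 9.13 in cKO and 27.4 and 24.3 in cKO/AD. Levels of Ifit1 were lower where only the knockout or only AD was present and overlapped with WT in cKO/AD, and the interaction was 2.75 (SE 0.43, edgeR adjusted p = 0.0537; 2.20 with GC content corrected). Ifit3 had the same order, at 24.8 and 23.9 CPM in WT, 10.8 and 14.5 in WT/AD, 11.5 and 9.17 in cKO and 24.8 and 21.8 in cKO/AD (interaction 2.11, SE 0.46, edgeR adjusted p = 0.0675). For Ifit2 the interaction was 2.19 (SE 0.48, edgeR adjusted p = 0.0675). Ifnar2, a subunit of the type I interferon receptor, had an interaction of -2.01 (SE 0.68, edgeR adjusted p = 0.148) and was at 8.74 and 31.0 CPM in cKO/AD against 65.1 to 94.0 in the other 6 libraries.

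Of 25 Toll-like receptor and NF-kappaB genes, 10 had a positive and 15 a negative interaction (median -0.36, or -0.001 with GC content corrected), and of 18 inflammasome and interleukin-1 genes 11 and 7 (median 0.23, or -0.02). By the GC-checked DESeq2 call, made in 2.63% (positive) and 2.73% (negative) of all tested genes, the first list had 2 positive members and 1 negative member, and the second 1 and 0. Pycard, which encodes the inflammasome adaptor ASC, was at 67.6 and 61.4 CPM in WT, 40.9 and 45 in WT/AD, 63.4 and 43.5 in cKO and 115 and 122 in cKO/AD. The cKO/AD libraries were above all others, with an interaction of 1.73 (SE 0.33, edgeR adjusted p = 0.0582; 1.36 with GC content corrected). Rela, a subunit of NF-kappaB, was at 41.9 and 52.7 CPM in WT, 65.6 and 60.8 in WT/AD, 32.5 and 52.7 in cKO and 1.99 and 8.83 in cKO/AD, with an interaction of -3.38 (SE 0.82, edgeR adjusted p = 0.0786; -2.02 with GC content corrected). Tlr6, a Toll-like receptor gene, had an interaction of 1.66 (SE 0.37) and Irak4, a kinase gene of the same pathway, of 1.48 (SE 0.43); the call of Irak4 was lost without the first cKO/AD library. Il1b, Nlrp3 and Tnf had interactions of -1.21, -0.45 and 0.03 with standard errors of 1.73, 1.47 and 2.12, and none was resolved. In the first and second cKO/AD libraries Nlrp3 was at 0.341 and 4.95 CPM and Tnf at 0 and 5.93. Il1b was at 0.665 and 2.37 CPM in WT and at 0.454 and 0.714 in cKO/AD.

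Of 20 antigen presentation genes, 7 had a positive and 13 a negative interaction, and the median of -0.26 became 0.41 with GC content corrected. By the GC-checked DESeq2 call 2 were positive and 2 negative, against 2.63% and 2.73% of all tested genes. H2-Aa, an MHC class II gene, was at 238 and 256 CPM in WT, 269.6 and 298 in WT/AD, 192 and 217 in cKO and 104 and 141 in cKO/AD, lowest in cKO/AD without overlap (interaction -0.94, SE 0.29, edgeR adjusted p = 0.121; -1.25 with GC content corrected). H2-Ab1, which encodes the partner chain, was highest there, at 592 and 529.7 CPM against 293 to 472 in the other 6 libraries (interaction 0.85, SE 0.27, edgeR adjusted p = 0.132; 2.02 with GC content corrected). Cd74, the gene of the invariant chain that binds both chains, was also highest in cKO/AD (interaction 1.56, SE 0.41, edgeR adjusted p = 0.0916; 2.62 with GC content corrected). Nlrc5, which encodes a regulator of MHC class I genes, was at 0 and 0.223 CPM in cKO/AD against 2.61 to 7.03 CPM in the other 6 libraries.

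Of the 38 tested calcium handling and CALHM genes, 20 had a positive and 18 a negative interaction (median 0.05, or 0.29 with GC content corrected). By the GC-checked DESeq2 call 3 were positive and 0 negative, against 2.63% and 2.73% of all tested genes; Atp2b3, described above with a negative interaction, is not on this list. Calm2, which encodes the calcium-binding protein calmodulin, was at 401 and 366 CPM in WT, 227 and 323 in WT/AD, 320.0 and 225 in cKO and 959 and 469 in cKO/AD. Both cKO/AD libraries were above the other 6, and the interaction of Calm2 was 1.87 (SE 0.50, edgeR adjusted p = 0.0949). Stim2, a calcium sensor of the endoplasmic reticulum, had an interaction of 1.29 (SE 0.31, edgeR adjusted p = 0.0763).

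Among metabolic and disease genes, Gapdh, a glycolysis gene, was at 261 and 267 CPM in WT, 639.5 and 497 in WT/AD, 188 and 281 in cKO and 112 and 175 in cKO/AD (interaction -1.81, SE 0.41, edgeR adjusted p = 0.0698). Hk2, a hexokinase gene, had an interaction of 1.61 (SE 0.41) and Pgk1 of 0.82 (SE 0.24), so the glycolysis list had no common direction (9 positive and 14 negative of 23, median -0.43, or -0.04 with GC content corrected). Picalm, an Alzheimer risk gene that acts in endocytosis, was at 424 and 317 CPM in WT, 259.6 and 304 in WT/AD, 432 and 293 in cKO and 1297 and 734 in cKO/AD (interaction 1.88, SE 0.45, edgeR adjusted p = 0.0783). Adam10, which encodes an alpha-secretase of the amyloid precursor protein, had an interaction of 1.38 (SE 0.31; 0.78 with GC content corrected), and Aph1a, a subunit of gamma-secretase, of -3.53 (SE 1.18). Abcg1, a cholesterol exporter gene, was at 2687 and 1135 CPM in cKO/AD against 467 to 724 in the other 6 libraries (interaction 2.14, SE 0.55). Cytosolic ribosomal protein genes had 7 positive and 32 negative interactions of 39, with a median of -0.92 (-0.46 with GC content corrected) and 0 GC-checked DESeq2 calls, against 5.37% of all tested genes.

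Cell cycle genes had 21 positive and 9 negative interactions, with a median of 0.72 (0.59 with GC content corrected), and 1 GC-checked DESeq2 call, against 5.37% of all tested genes. The median fell to 0.29 without the second WT library and to 0.44 without the first cKO library. The called gene, Hells, which encodes a chromatin remodelling helicase, was at 10.9 and 6.29 CPM in WT, 3.46 and 3.72 in WT/AD, 8.27 and 3.86 in cKO and 80.9 and 27.2 in cKO/AD (interaction 4.42, SE 0.87, edgeR adjusted p = 0.0599). Immediate-early and dissociation stress genes had a median of -1.10 that became -0.06 with GC content corrected. Fosb, an immediate-early transcription factor gene, had 0 counts in cKO/AD, at least 64.8-fold lower than in WT/AD and at least 75.8-fold lower than in cKO with 3 counts over both libraries taken as the floor. Fos had an interaction of -2.13 (SE 0.56, edgeR adjusted p = 0.0916), while Myc had one of 1.16 (SE 0.28, edgeR adjusted p = 0.0768).

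Markers of other cell types also had interactions, and their part in the results above was not tested. Endothelial markers had 13 positive and 5 negative interactions of 18 (median 0.51, or 0.87 with GC content corrected), with 6 positive and 0 negative GC-checked DESeq2 calls, against 2.63% and 2.73% of all tested genes. The median was 0.14 without the first and 0.91 without the second cKO/AD library. Their summed level was 2633 and 2909 CPM in WT, 1587 and 1597 in WT/AD, 807 and 928 in cKO and 574 and 777 in cKO/AD. Cavin1, a caveolar coat gene, was at 928 and 1102 CPM in WT, 281 and 318 in WT/AD, 188 and 192 in cKO and 146 and 203 in cKO/AD, with an interaction of 1.64 (SE 0.30, edgeR adjusted p = 0.0577) and of 2.76 with GC content corrected (edgeR adjusted p = 0.0302). The level was high in WT and low in the 3 other groups, so the knockout difference (-2.42) and the AD difference in WT (-1.76) came to less in cKO/AD than their sum. Kdr and Slco1a4, both endothelial genes, had interactions of 2.36 (SE 0.57) and 2.02 (SE 0.47; 1.31 with GC content corrected for Slco1a4).

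The neutrophil markers Ngp and Mmp8 were, like Cavin1, highest in WT. Unlike Cavin1, both were higher in cKO/AD than in WT/AD. Mmp8 was at 81.2 and 76.9 CPM in WT, 12.1 and 16.9 in WT/AD, 48.1 and 27.4 in cKO and 32.5 and 29.0 in cKO/AD. Ngp was at 1833 and 1754 CPM in WT, 691 and 717 in WT/AD, 917 and 811 in cKO and 786 and 850.0 in cKO/AD (interaction 1.27, SE 0.24, edgeR adjusted p = 0.0582). The summed neutrophil markers were at 3127 and 3232 CPM in WT and between 1084 and 1597 CPM in the other 6 libraries. Oligodendrocyte markers had 4 positive and 11 negative interactions (median -1.14, or -0.45 with GC content corrected); Mbp, a myelin gene, was at 107 and 362 CPM in cKO/AD against 675 to 1332 in the other 6 libraries (interaction -2.43, SE 0.68, edgeR adjusted p = 0.102). The summed level of the same list was nevertheless highest in cKO/AD, at 10776 and 8786 CPM against 5165 to 7131 in the other 6 libraries. Of 25 neuron markers, 14 were positive and 11 negative (median 0.04), and the glutamate transporter gene Slc17a7 was at 7.61 and 11.2 CPM in cKO/AD against 58.8 to 100.02 in the other 6 libraries (interaction -3.29, SE 0.43, edgeR adjusted p = 0.051). Erythrocyte and T and NK cell markers were each summed to at most 21.8 CPM in every library.

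**Figure D4:**
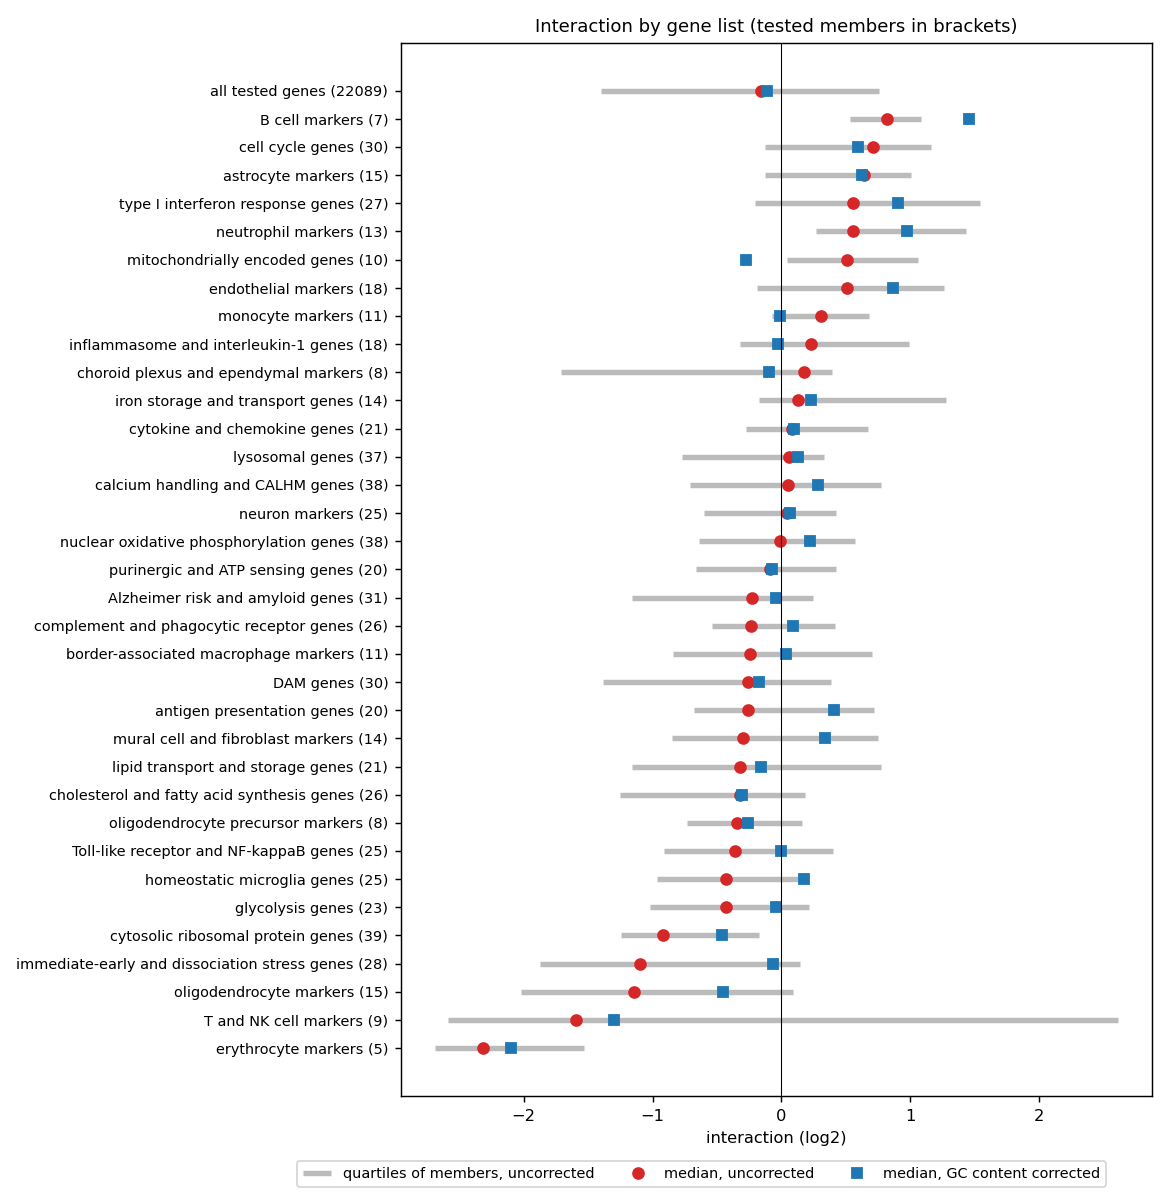
Interaction in log2 by gene list, with the number of tested members in brackets; red circles are medians, grey bars run between the quartiles of members, and blue squares are medians with GC content corrected. The medians of cell cycle, astrocyte, interferon, neutrophil and endothelial lists lie above 0 both ways, those of ribosomal protein, oligodendrocyte and erythrocyte lists below 0 both ways, and the homeostatic microglia list crosses 0.

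Over all genes, the interaction fell with the GC content of transcripts. In the lowest of 10 equal groups of genes by GC content the median interaction was 0.70 and in the highest it was -1.53, and each group between them had a lower median than the group before it; Spearman's rho over the 13045 genes whose mean log2 CPM exceeded 2 was -0.58 (a description over genes). The AD difference in WT rose with GC content, from a median of -0.25 to 0.55, and that in cKO fell, from 0.46 to -0.99. In single libraries, genes of the highest GC group deviated from the mean of the 8 libraries by 0.93 and 0.70 in WT/AD and by -1.37 and -0.62 in cKO/AD, against -0.11 to 0.29 in the 4 libraries without AD. The 2716 genes with a negative interaction at an unadjusted p of 0.05 had a median GC content of 54.9%, the 2130 positive genes 44.3%, and all tested genes 48.5%. After correction the 10 groups had medians between -0.03 and 0.05, by construction. The correction removes any true difference that runs with GC content as well, and whether the relation lies in the cells or in the libraries was not tested.

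**Figure D5:**
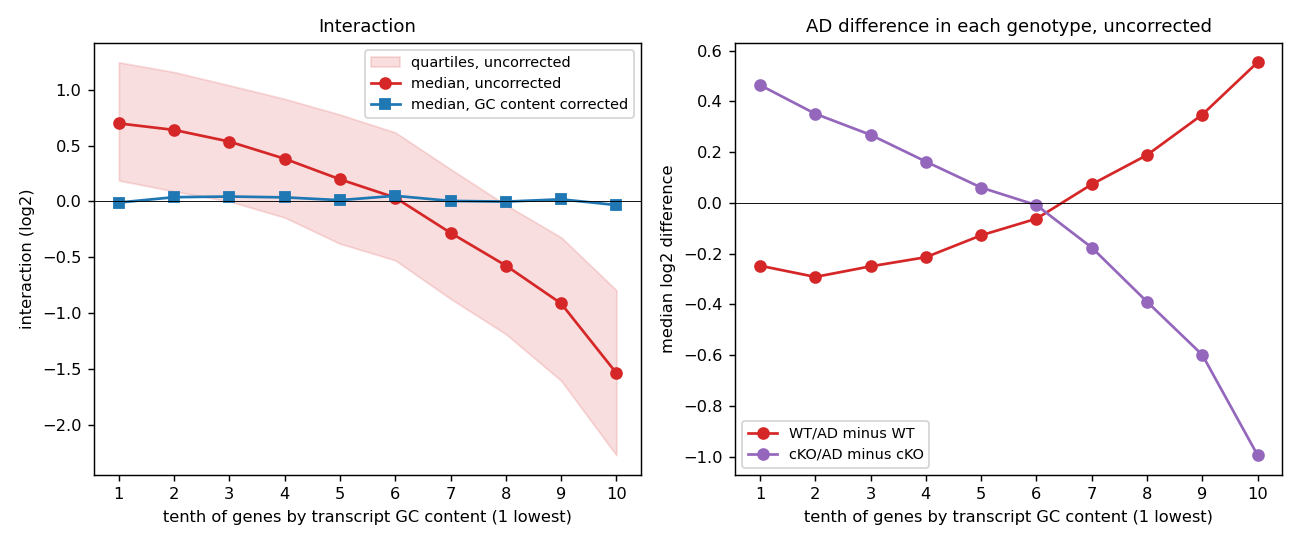
Left, median interaction in log2 (red circles, with quartiles shaded) and median with GC content corrected (blue squares) in 10 equal groups of genes ordered by transcript GC content; right, median AD difference in log2 in WT (red) and in cKO (purple). The uncorrected interaction goes from 0.70 in the lowest to -1.53 in the highest group, as the AD difference rises with GC content in WT and falls in cKO.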

How the data were processed

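RNA-seq was done on microglia of 4 groups with 2 libraries each. Per the labels' protocols, RNA was taken up in Trizol and libraries were made with an Illumina TruSeq kit. The authors deposited whole-number read counts per gene, not normalised, for 55421 genes. Per the submitters' processing notes the genome build was mm9. How reads were aligned and counted, and with which strand setting, is not given in the sources used here, so reads of antisense or overlapping partners cannot be told apart. Groups and replicate numbers came from the source names; the second cKO/AD library, titled D2-1, was matched to the column D2. The table held 0 columns that belong to no sample.

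The analysis used edgeR 4.0.16 (R 4.3.3), with filterByExpr by group, TMM factors (0.873 to 1.11), a group means model over all 8 libraries (4 residual degrees of freedom), and the two-sided quasi-likelihood test of the interaction. P-values were adjusted by Benjamini-Hochberg across the 22089 genes tested, with a threshold of 0.05. Standard errors follow from the log2 value and its F statistic. CPM used TMM-scaled library sizes. Groups with 0 counts were bounded by 3 counts over the group, and those with 1 to 3 got exact 95% intervals, which cover counting error only. A sign was counted over the 16 choices of 1 library per group on log2 CPM, computed with 2 as prior count.

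GC content was that of the longest transcript in GENCODE M21 (99.9% of tested genes had a value), used for no coordinates since its build is later than mm9. The longest transcript was taken whatever its type. For some genes, among them Trem2, H2-Aa, Gapdh and Slc17a7, it is annotated as a retained intron form. The GC-corrected values of these genes rest on the GC content of that form. The GC correction fits, per library, how far log2 CPM lies from the mean of the 8 libraries as a loess curve of GC content (span 0.4, genes whose mean log2 CPM exceeds 2) and uses that curve as an offset.

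The rule for named genes takes Calhm2, all genes past the threshold where they are fewer than 10, the next 10 by raw p and 18 microglial genes. A further 47 list members called by DESeq2 with and without GC correction, of which some are printed, were chosen after their values were seen. A gene withheld from the text is not reported here. The 34 lists (696 genes, 675 tested), the named genes and the tests were chosen with earlier results of these data known. Lists are described by counts and medians only. Alternatives were DESeq2 1.42.0, limma 3.58.1 (voom, voom with a weight per group, and trend), size factors, no TMM, no filter, a stricter filter (mean of at least 5 CPM), a minimum change of 2-fold, GC and length corrections, a replicate block and leaving out each library. Those added after seeing the data were a threshold of 0.1, DESeq2 with GC correction, and DESeq2 without the first cKO/AD library. The edgeR script was tested on simulated data with a smaller spread between libraries than these data had. That run checks the code and does not measure how many true differences are found here.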

Additional observations from a re-analysis of the deposited data

Results flagged for a closer look

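The AD difference itself differed between the genotypes in 6 genes, by edgeR's test of the interaction. The interaction in log2 was 12.58 for Gm10800, 12.34 for Gm10801, -3.58 for Gm21887, -3.85 for Slc25a22, -4.47 for Grin2c and -8.78 for Hps6. The values of Gm10801 and Hps6 rest on a group with 1 count, so their size depends on the prior count. Of the 6, Gm10800 alone was called by edgeR under every alternative tried. With GC content corrected, edgeR kept Gm10800, Gm10801 and Slc25a22.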

How the results depend on the processing

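The number of calls (6 by edgeR as reported, with 2 positive and 4 negative) changed with the libraries kept, the filter, the normalisation and the method. What set the number was not tested. The totals, with positive and negative calls after them, were 20 (5 and 15) with DESeq2 size factors, 24 (4 and 20) without TMM, 2670 (1070 and 1600) without a filter, 710 (303 and 407) with the stricter filter, 684 (263 and 421) by limma-voom, 903 (563 and 340) by voom with a weight per group and 6 (3 and 3) by limma trend. They were 7 (5 and 2) with GC content corrected, 7 (5 and 2) with length corrected too, 2 (2 and 0) with a minimum change of 2-fold, 1533 (640 and 893) at the threshold of 0.1, 2763 (1226 and 1537) by DESeq2 and 1582 (834 and 748) by DESeq2 with GC correction. Without the first cKO/AD library DESeq2 called 3725 (1481 and 2244), and 2511 (1200 and 1311) with GC correction. Leaving out each library in turn, edgeR called between 1 and 7884 genes, 1 to 2717 positive and 0 to 5167 negative. The total was 7884 without the second and 3071 (1115 and 1956) without the first cKO/AD library, 27 (3 and 24) without the first cKO library, and 1 without any of the other 5, that of Gm10800. Where a library was left out, its group had 1 library, assumed to vary like the other groups. All 6 genes were called by DESeq2.

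The replicate numbers do not pair the libraries: the replicate differences of 2 groups correlated between -0.03 and 0.06 across genes. With the replicate block, edgeR called 1 gene (1 positive and 0 negative), Gm10800, and with the block and GC correction 6 (4 and 2).

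Of 1964 values of 82 named genes under the alternatives, 38 in 8 genes turned sign, none of them past the edgeR threshold as reported. With GC content corrected, with length too, with the block too, by DESeq2 and by DESeq2 without the first cKO/AD library, in that order, Apoe was at 1.00, 0.74, 0.99, 1.03 and 0.80, Clec7a at -0.093, -0.13, -0.091, -0.061 and -0.092, Lpl at -0.19, -0.11, -0.18, -0.16 and -0.024, and Tmem119 at 0.36, 0.32, 0.32, 0.38 and 0.77. Tnf was at -0.11 without TMM, -2.59 by voom, -2.51 by voom with weights, -1.995 by limma trend, -0.53 with the block, -0.32 with the block and GC correction, and between -8.99 and 1.01 leaving out each library in turn, the same ranges being -1.84 to 0.015 for Cx3cr1, -2.40 to 0.35 for Il1b and -3.41 to 0.44 for Nlrp3. Without the first cKO/AD library Cx3cr1 was at 0.015 (0.045 and 0.058 by DESeq2 without and with GC correction) and Nlrp3 at 0.44 (0.47 and 0.56). Without the second cKO library Nlrp3 was at 0.06 and Il1b at 0.35. The causes were not tested. Without TMM the median interaction of all genes moved from -0.16 to -0.37. List medians kept their sign under all 24 alternatives for DAM, interferon, cell cycle, ribosomal protein, endothelial, astrocyte, neutrophil and oligodendrocyte lists. The stricter filter left no gene of the erythrocyte and T and NK cell lists to describe. With 2 libraries per group, the size of the interaction was not well resolved for genes with a group near the count floor, also where the gene was called.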
